A study of Mus musculus with 6 samples.

Results

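The genes described here are 32 mouse genes that stop the cell cycle or decide on cell death: 9 cell cycle inhibitors and pocket proteins, 7 genes of the p53 pathway, and 16 genes of the BCL2 family and the apoptosome. They were chosen by symbol, not by their measured values, and all 32 had a row among the 24594 genes of the count table. The libraries were made from NeuN-sorted cerebellar nuclei of mice aged 7 months, with 3 libraries of genotype Ezh1(cKO/cKO);Neurod1-Cre (cKO) and 3 of genotype Ezh1(wt/wt);Neurod1-Cre (WT). Neurod1-Cre, a Cre recombinase line named after the granule neuron gene Neurod1, is carried by both genotypes. Ezh1 encodes a catalytic subunit of Polycomb repressive complex 2, which methylates lysine 27 of histone H3, and the comparison asks whether its loss in neurons that no longer divide alters gene expression. Neither the deleted part of Ezh1 nor whether a library is 1 animal or a pool is stated, so p-values measure the spread between these libraries, which may be partly technical.

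A cell that leaves the division cycle is held out of it by CDK inhibitors and by the retinoblastoma proteins, which keep E2F factors from switching on S phase genes. The transcription factor p53, kept low by MDM2 and MDM4, switches on both arrest genes and death genes after DNA damage. At the mitochondrion, BH3-only proteins relay death signals, the anti-apoptotic BCL2 proteins bind and restrain them, and BAX and BAK open the outer membrane, after which APAF1 and caspase-9 assemble. The Cdkn2a and Cdkn2b locus is a classic target of Polycomb repression in dividing cells, and the death genes are best known in granule neurons from work on their death in development and in culture.

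Libraries held 6340236 to 6827022 counts in cKO and 6682805 to 8284768 in WT. Of all counts, 26.0% fell on 1 entry that matched no symbol and 4.43% on Malat1, and these are part of the library totals. Levels are CPM, the counts of a gene per 1000000 counts of its library after TMM scaling. Ezh1 itself was at 52.5, 51.0 and 55.6 CPM in the cKO libraries, against 71.0, 75.7 and 83.3 CPM in the WT libraries (log2 fold change -0.53, adjusted p = 0.00672 by edgeR). The count covers the whole gene and so does not measure the intact transcript. Granule cell markers (13 of 13 tested) summed to 4876 to 5837 CPM in cKO and 5014 to 5189 CPM in WT, and 1 of them was called, Neurod1, at 317, 318 and 287 CPM in cKO libraries against 138, 154 and 134 CPM in WT libraries. Markers of other cells were present in both genotypes, and oligodendrocyte markers (10 of 10 tested) summed to 420, 327 and 725 CPM in cKO replicates 1, 2 and 3 and to 465, 402 and 269.8 CPM in WT replicates 1, 2 and 3. Xist, which coats the inactive X, also set libraries apart, at 831 CPM in cKO replicate 1 and 811 CPM in WT replicate 1 but at 1.39 to 4.46 CPM in the other 4.

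None of the 32 genes was called between the genotypes at an adjusted p below 0.05 in edgeR's quasi-likelihood test, where 0.579% of the 13115 tested genes were. Of the 32, 28 passed the filter on low counts, and Cdkn2a, Cdkn2b, Fas and Pmaip1 did not, as did 46.7% of all entries. Rb1, Bad and Bbc3 had an unadjusted p below 0.05, 3 genes (10.7% of the 28, beside 11.9% of all tested genes). The median log2 fold change of the 28 was -0.02, with 13 positive and 15 negative, beside -0.01 over all tested genes. Limma-voom also called 0 of them, with 3 at an unadjusted p below 0.05. DESeq2 called 0 of the 11 to which it gave an adjusted p, with 1 of these, Rb1, at an unadjusted p below 0.05; Bad had an unadjusted p of 0.0133 there but no adjusted p. In the edgeR fit the smallest adjusted p of any member was 0.146, for Rb1, and in DESeq2 it was 0.139, also for Rb1.

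**Figure D1:**
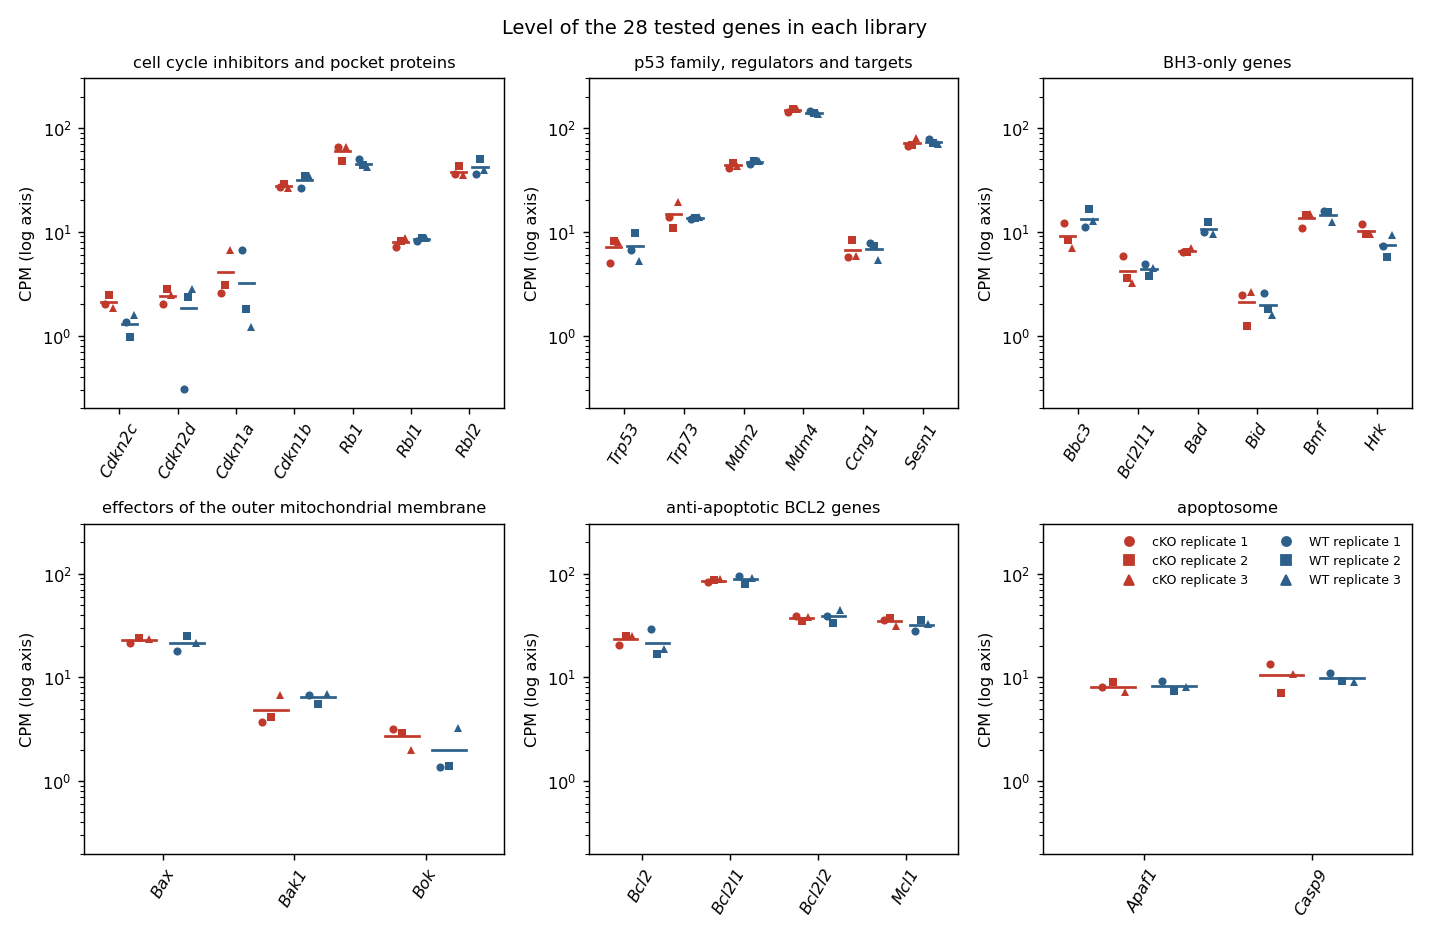
Level of each tested gene in CPM on a log axis, by role, with cKO libraries in red on the left and WT libraries in blue on the right of each gene. Each point is 1 library (circle, square and triangle for replicates 1, 2 and 3) and each bar is the mean of 3. Most pairs of bars lie close together, while Bad is lower in the 3 cKO libraries and Cdkn2d has 1 WT library far below the rest.

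The INK4 inhibitors, which bind CDK4 and CDK6, ranged from almost no reads to a few CPM. Cdkn2a, which encodes the tumour suppressors p16INK4a and ARF, had 0, 0 and 0 counts in the cKO libraries and 2, 0 and 0 counts in the WT libraries. Its neighbour Cdkn2b, which encodes p15INK4b, had 0, 0 and 0 counts in cKO and 3, 2 and 2 counts in WT. Both genes thus had no read in any cKO library and next to none in WT. A count of 0 allows up to 3 counts, which is 0.432 to 0.463 CPM in a cKO library and covers counting error only. Both genotypes of both genes lay at or below those 3 counts, so no fold change is given.

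Of all entries, 5 (0.0203%) had no read in cKO and at least 2 in every WT library, as Cdkn2b did, and 4 (0.0163%) had the mirror pattern. This criterion was chosen after the values were seen. The shares are over all entries, not over entries with as few counts as Cdkn2b, so they do not measure how rare its pattern is among those. With silence set as a mean below 0.1 CPM in each genotype, 24.1% of all entries were silent and 0 of the 32 genes were. Cdkn2a missed that limit by its WT mean of 0.101 CPM. Below 0.3 CPM in each genotype were Cdkn2a, Fas and Pmaip1, while Cdkn2b had a WT mean of 0.325 CPM. Cdkn2a alone had at most 2 counts in every library.

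The bases before the starts of Cdkn2a and Cdkn2b are shown because these were the inhibitors with almost no reads, and those of Cdkn1b because it was the CDK inhibitor with the highest level per kilobase of exon. Sequences are from RefSeq on GRCm38.p6, 5′ to 3′ on the strand of the gene, and capitals mark CG dinucleotides, which read the same on both strands. Each is the 250 bases before a start, less any base in an annotated exon. Of the 2 annotated starts of Cdkn2a, the outer one is that of the ARF transcript and the inner one that of p16INK4a.
Cdkn2a inner start, chr4:89282193-89282442, minus strand: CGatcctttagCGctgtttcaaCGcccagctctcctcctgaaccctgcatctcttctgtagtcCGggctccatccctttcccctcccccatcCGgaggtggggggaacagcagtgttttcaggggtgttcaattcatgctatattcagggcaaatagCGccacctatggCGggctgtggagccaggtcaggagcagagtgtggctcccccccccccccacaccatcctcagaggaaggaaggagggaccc
Cdkn2a outer start, chr4:89294654-89294869, minus strand: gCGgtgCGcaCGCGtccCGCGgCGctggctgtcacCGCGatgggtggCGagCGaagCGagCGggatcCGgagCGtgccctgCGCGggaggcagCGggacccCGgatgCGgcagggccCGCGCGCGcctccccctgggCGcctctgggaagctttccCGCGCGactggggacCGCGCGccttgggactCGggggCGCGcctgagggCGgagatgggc
Cdkn2b, chr4:89311040-89311282, minus strand: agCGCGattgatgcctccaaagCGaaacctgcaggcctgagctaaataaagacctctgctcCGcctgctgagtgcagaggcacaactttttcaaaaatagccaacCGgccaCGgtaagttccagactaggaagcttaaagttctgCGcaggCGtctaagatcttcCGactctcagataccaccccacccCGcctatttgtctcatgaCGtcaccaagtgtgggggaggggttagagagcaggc
Cdkn1b, chr6:134920151-134920400, plus strand: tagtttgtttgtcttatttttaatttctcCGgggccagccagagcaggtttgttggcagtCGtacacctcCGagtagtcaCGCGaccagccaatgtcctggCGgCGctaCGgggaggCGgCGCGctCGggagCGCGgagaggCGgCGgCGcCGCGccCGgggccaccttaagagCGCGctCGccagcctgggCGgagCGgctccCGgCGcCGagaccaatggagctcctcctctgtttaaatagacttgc
Counted over the full 250 bases, the outer Cdkn2a start had 40 CG dinucleotides, a number that 1.31% of the 32851 annotated starts reach. The inner start had 7 (46.3% reach it), Cdkn2b had 12 (33.5%) and Cdkn1b had 28 (7.61%). The median was 6 over all starts and 17 over the 44 starts of the members. Above both medians lay the outer Cdkn2a start, that of ARF, and the Cdkn1b start. Between the medians lay the inner Cdkn2a start, that of p16INK4a, and the Cdkn2b start. A relation of CG content to level was not tested. A start was found for 30 of the 32 genes.

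The other INK4 genes were detected at a few CPM. Cdkn2c, which encodes p18INK4c, was at 2.01, 2.47 and 1.85 CPM in cKO, against 1.36, 0.9753 and 1.58 CPM in WT. All 3 cKO libraries lay above all WT libraries, but each rests on 7 to 16 counts, and the log2 fold change of 0.68 had a 95% interval of -0.30 to 1.66 (adjusted p = 0.635). Cdkn2d, which encodes p19INK4d, was at 2.01, 2.78 and 2.46 CPM in cKO, against 0.302, 2.37 and 2.79 CPM in WT. WT replicate 1, with 2 counts, stood apart from the other 5 libraries, which had 14 to 23. Its log2 fold change was 0.37 (adjusted p = 0.835) with all libraries and -0.10 without WT replicate 1.

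**Figure D2:**
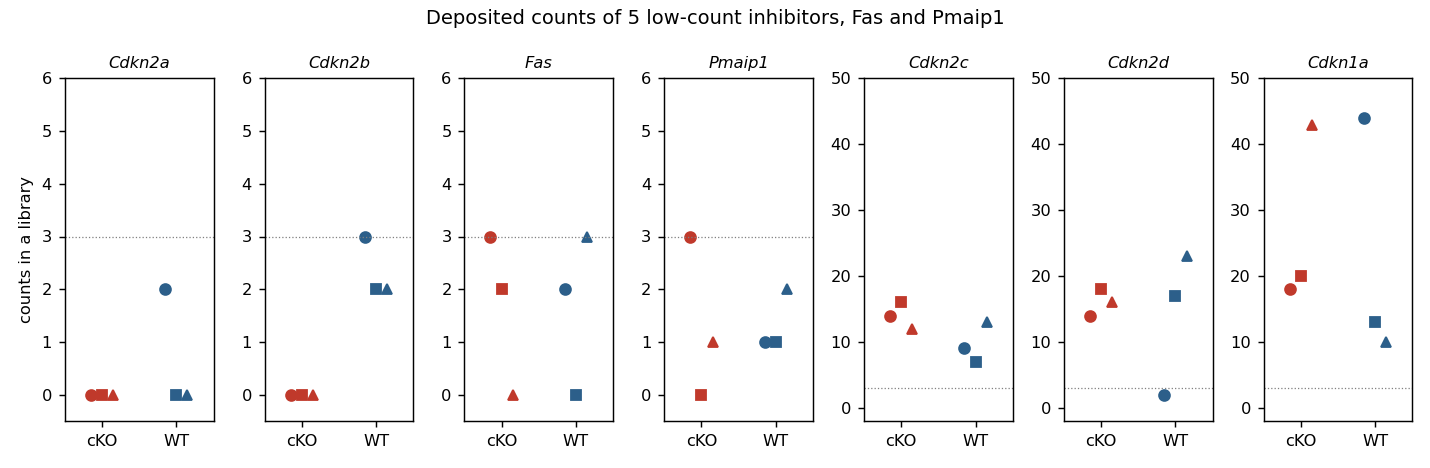
Deposited counts per library of 5 low inhibitor genes, Fas and Pmaip1, with cKO in red on the left and WT in blue on the right, 1 point per library, and a dotted line at 3 counts. Cdkn2a and Cdkn2b have 0 counts in the 3 cKO libraries, and Cdkn1a stands at 43 and 44 counts in 1 library of each genotype.

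Cdkn1a, which encodes p21 and is the classic arrest target of p53, varied more between libraries than between genotypes. It was at 2.59, 3.09 and 6.62 CPM in cKO replicates 1, 2 and 3, against 6.65, 1.81 and 1.21 CPM in WT replicates 1, 2 and 3. The genotypes overlapped: cKO replicate 3 and WT replicate 1 were both high, and the other 4 libraries lay at 1.21 to 3.09 CPM. The log2 fold change was 0.38 (95% interval -0.96 to 1.72, adjusted p = 0.864). It was 1.43 without WT replicate 1, 1.68 without replicate 1 of both genotypes, -0.15 without cKO replicate 3 and -0.04 without WT replicate 3, and in none of these was the gene called (adjusted p of 0.148 to 0.990). The libraries high in Cdkn1a had the highest sums of oligodendrocyte markers (10 of 10 tested), at 725 CPM in cKO replicate 3 and 465 CPM in WT replicate 1 beside 269.8 to 420 CPM in the rest. They also had the highest sums of microglial markers (3 of 10 tested), at 30.9 and 39.3 CPM beside 18.3 to 24.4 CPM. These lists were singled out from 8 marker lists after the values were seen. In no other marker list were cKO replicate 3 and WT replicate 1 both the highest of their genotype. Purkinje cell markers, for example, had their highest cKO sum in cKO replicate 1, at 1060 CPM. No oligodendrocyte or microglial marker was at 0 in all libraries, and the part of these markers in the Cdkn1a values was not tested. In bulk nuclei, a different number of cells of a type and a different amount of RNA per cell cannot be told apart. An annotated transcript on the opposite strand shares 273 exon bases with Cdkn1a.

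Cdkn1b, which encodes p27, the inhibitor best known in neurons that have left the cycle, was at 27.1, 28.9 and 26.3 CPM in cKO, against 26.6, 34.3 and 34.1 CPM in WT. The value of WT replicate 1 fell inside the cKO range. A log2 fold change of -0.21 was fitted (SE 0.14, adjusted p = 0.587), and its 95% interval of -0.49 to 0.07 lay within 2-fold.

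Among the pocket proteins, Rb1, the retinoblastoma gene (NCBI gene 19645, chromosome 14, 73192858 to 73325951, GRCm38), had the smallest p of the 28 tested genes. It was at 65.3, 47.9 and 65.0 CPM in cKO, against 49.9, 44.4 and 42.0 CPM in WT. The genotypes overlapped, since cKO replicate 2 lay below WT replicate 1. Means were 59.4 ± 9.97 CPM in cKO nuclei and 45.4 ± 4.03 CPM in WT nuclei (SD, n = 3 each), and the log2 fold change was 0.39 (SE 0.12, 95% interval 0.14 to 0.64, unadjusted p = 0.00318, adjusted p = 0.146 by edgeR). The call depended on 1 library: without cKO replicate 2 the log2 fold change was 0.52 and the adjusted p 0.0224, and without any 1 of the other libraries the adjusted p was between 0.0690 and 0.524. Fitted without the filter on low counts, Rb1 was called at an adjusted p of 0.0439. Scaling by library size alone gave 0.102.

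Lpar6, a lysophosphatidic acid receptor gene that lies inside Rb1 on the opposite strand, was at 21.0, 22.2 and 18.5 CPM in cKO, against 16.8, 13.8 and 16.3 CPM in WT. Every cKO library lay above every WT library (log2 fold change 0.40, unadjusted p = 0.0185, adjusted p = 0.291). Rb1 and Lpar6 share 408 exon bases, and no source states whether the counting used strand, so their reads may not be fully separated. Rcbtb2, which in the GENCODE annotation overlaps Rb1 on the opposite strand and shares 488 exon bases, had an adjusted p of 0.798 and a log2 fold change of -0.14.

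The other pocket protein genes had log2 fold changes below 0. Rbl2, which encodes p130, the pocket protein that dominates in resting cells, was at 38.0 ± 4.54 CPM in cKO nuclei and 41.7 ± 7.11 CPM in WT nuclei (log2 fold change -0.13, 95% interval -0.41 to 0.14, adjusted p = 0.751). Rbl1, which encodes p107, was at 7.95 ± 0.81 CPM in cKO nuclei and 8.52 ± 0.32 CPM in WT nuclei (-0.10, adjusted p = 0.907). The differences between Rb1 and these relatives were not tested. Summed over the 9 inhibitors and pocket proteins, the level was 142, 136.5 and 146 CPM in cKO, against 130, 143 and 129.6 CPM in WT, so that the genotypes overlapped.

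In the p53 pathway no gene of the 6 tested reached an unadjusted p below 0.05. Trp53 itself was at 5.04, 8.18 and 8.003 CPM in cKO, against 6.65, 9.75 and 5.22 CPM in WT, with full overlap (log2 fold change -0.02, 95% interval -0.58 to 0.53). Trp73, which encodes the p53 relative p73, was at 14.0, 10.8 and 19.2 CPM in cKO nuclei and at 13.2, 13.7 and 13.8 CPM in WT nuclei (0.11, -0.29 to 0.52). The cKO libraries of Trp73 lay on both sides of the WT libraries, which were close to each other.

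Per kilobase of exon, the restraints on p53 stood above Trp53, which was at 1.75 CPM per kb in cKO and 1.78 CPM per kb in WT, with Mdm2 at 8.55 CPM per kb in cKO and 9.22 CPM per kb in WT. Mdm4, which encodes the partner of MDM2 that blocks p53, was at 144, 152 and 153 CPM in cKO, against 146, 138 and 136 CPM in WT. Its log2 fold change was 0.09 with an interval of -0.07 to 0.26, the narrowest among the 28. Mdm2, the ubiquitin ligase gene that is both the regulator and a target of p53, was at 41.4, 45.7 and 43.3 CPM in cKO, against 45.2, 47.5 and 47.8 CPM in WT (-0.11, -0.34 to 0.12, adjusted p = 0.757).

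The p53 target Sesn1, a stress-response gene that restrains mTORC1, was at 67.2, 68.6 and 79.7 CPM in cKO replicates 1, 2 and 3, against 78.6, 72.2 and 69.7 CPM in WT replicates 1, 2 and 3 (log2 fold change -0.03, 95% interval -0.23 to 0.17). Its highest libraries, cKO replicate 3 and WT replicate 1, were those with the most Cdkn1a, which was noticed after the values were seen. The highest library of Sesn1 was only 1.19 times the lowest in cKO and 1.13 times in WT. Of the p53 targets Mdm2, Ccng1 and Bbc3, none was highest in cKO replicate 3 within cKO. Only Ccng1 was highest in WT replicate 1 within WT. Ccng1, which encodes the p53 target cyclin G1, was at 5.76, 8.34 and 5.85 CPM in cKO nuclei and at 7.71, 7.25 and 5.34 CPM in WT nuclei (-0.02, -0.56 to 0.52). Fas, the death receptor gene, stayed near silent with 3, 2 and 0 counts in cKO and 2, 0 and 3 counts in WT.

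Among the BH3-only genes, Bad had the largest log2 fold change of the 28 in absolute size. Bad, whose product binds BCL-xL unless growth factor signals phosphorylate it, was at 6.33, 6.33 and 6.93 CPM in cKO, against 9.97, 12.5 and 9.47 CPM in WT. Every cKO library lay below every WT library. The log2 fold change was -0.70 (SE 0.23, 95% interval -1.17 to -0.24, unadjusted p = 0.00422), and the adjusted p of 0.164 did not pass. With 1 library left out at a time it stayed between -0.79 and -0.57, with adjusted p between 0.142 and 0.593. Gpr137, on the opposite strand, shares 524 exon bases with Bad and was at 16.4, 19.8 and 20.2 CPM in cKO, against 21.6, 22.7 and 24.6 CPM in WT, also without overlap (-0.29, adjusted p = 0.449). How the counting split the shared bases was not tested.

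Bbc3, which encodes PUMA, the BH3-only protein most tied to p53, was at 12.2, 8.34 and 6.93 CPM in cKO, against 11.03, 16.4 and 12.8 CPM in WT. The genotypes overlapped, because cKO replicate 1 lay above WT replicate 1. The log2 fold change was -0.54 (SE 0.22, 95% interval -1.0035 to -0.085, unadjusted p = 0.0220, adjusted p = 0.315). Without replicate 1 of both genotypes it was -0.93 (adjusted p = 0.132), and without WT replicate 2 it was -0.37 (adjusted p = 0.763).

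Hrk, a BH3-only gene known for its induction in neurons deprived of trophic support, lay the other way. Its levels were 11.8, 9.42 and 9.54 CPM in cKO, against 7.25, 5.71 and 9.23 CPM in WT. All cKO libraries lay above all WT libraries, by a small margin over WT replicate 3. The log2 fold change was 0.47 (95% interval -0.01 to 0.94, unadjusted p = 0.0542, adjusted p = 0.437). In all, Cdkn2c and Hrk were without overlap on the higher side in cKO and Bad on the lower side, 3 of the 28 tested (10.7%), where 16.3% of all tested genes were without overlap.

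The remaining BH3-only genes showed no separation. Bmf, whose product is linked to the cytoskeleton, was at 13.5 ± 2.20 CPM in cKO nuclei and 14.5 ± 1.86 CPM in WT nuclei (log2 fold change -0.11). Bcl2l11, which encodes BIM, was at 5.90, 3.55 and 3.23 CPM in cKO nuclei and at 4.84, 3.76 and 4.49 CPM in WT nuclei (-0.04, 95% interval -0.71 to 0.63). Bid, whose product joins death receptors to mitochondria, was at 2.10 ± 0.75 CPM in cKO nuclei and 1.99 ± 0.52 CPM in WT nuclei (0.09, -0.85 to 1.03). Pmaip1, which encodes NOXA, had 3, 0 and 1 counts in cKO and 1, 1 and 2 counts in WT, too few to test. The 7 BH3-only genes together were at 50.1, 43.4 and 44.3 CPM in cKO, against 51.5, 55.9 and 50.1 CPM in WT. The highest cKO library and the lowest WT library were almost level.

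**Figure D3:**
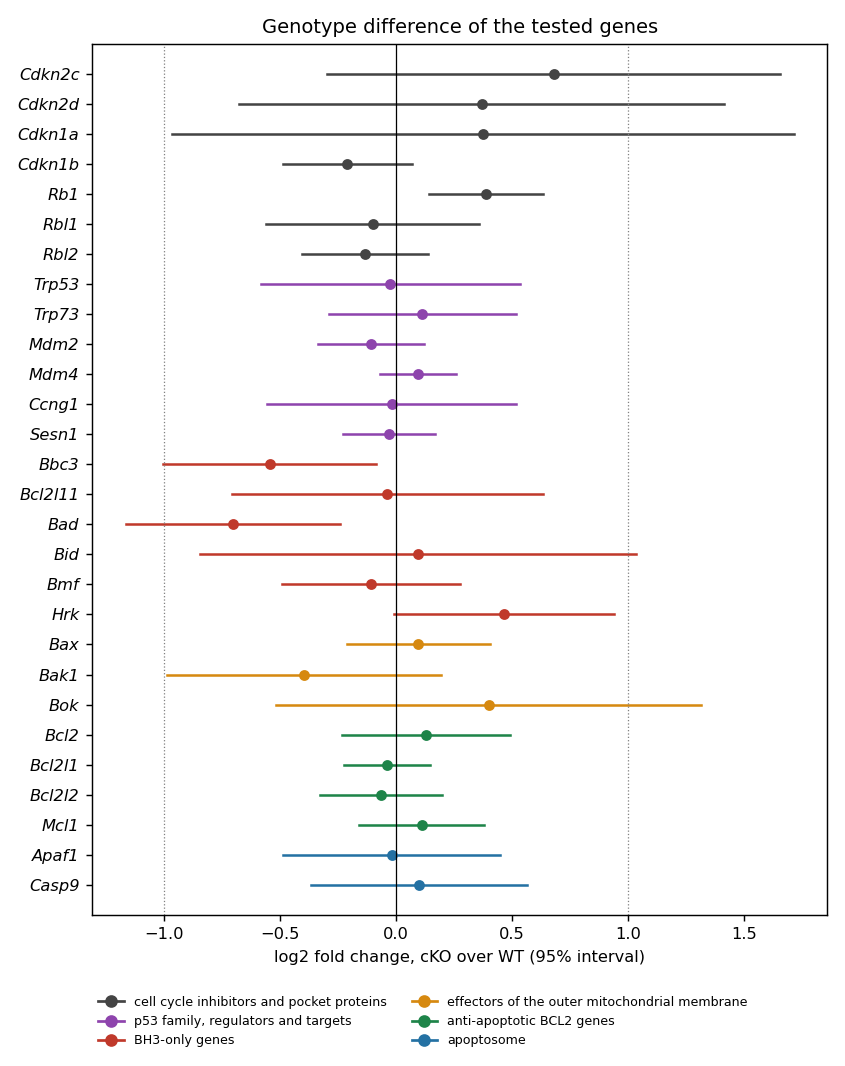
Log2 fold change of each tested gene, cKO over WT, with its 95% interval from the edgeR fit, coloured by role; dotted lines mark 2-fold. The intervals of Rb1, Bbc3 and Bad do not reach 0, and those of Cdkn2c, Cdkn2d, Cdkn1a, Bid and Bok are the widest.

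None of the 3 effector genes reached an unadjusted p below 0.05. Bax was at 21.6, 23.8 and 23.7 CPM in cKO, against 17.8, 25.1 and 21.6 CPM in WT (log2 fold change 0.10, 95% interval -0.21 to 0.40). Bak1, the partner of Bax, which mature neurons are known to express little in full-length form, was at 3.74, 4.17 and 6.77 CPM in cKO nuclei and at 6.80, 5.57 and 6.92 CPM in WT nuclei (-0.40, -0.99 to 0.19, adjusted p = 0.646). Without cKO replicate 3, whose value lay among the WT libraries, the log2 fold change of Bak1 was -0.70 (adjusted p = 0.437). Bok, another relative of these effectors, was at 3.16, 2.93 and 2.001 CPM in cKO nuclei and at 1.36, 1.39 and 3.28 CPM in WT nuclei (0.40, -0.52 to 1.32). WT replicate 3 was the highest of the 6 libraries for Bok.

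The 4 anti-apoptotic genes had log2 fold changes between -0.07 and 0.13. Bcl2l1, whose main product BCL-xL keeps mature neurons alive, was at 82.3, 87.1 and 88.2 CPM in cKO, against 95.1, 79.0 and 90.6 CPM in WT. Its log2 fold change of -0.04 had an interval of -0.22 to 0.15. Mcl1 was at 34.8 ± 3.38 CPM in cKO nuclei and 32.2 ± 3.92 CPM in WT nuclei (0.11, -0.16 to 0.38). Bcl2l2, which encodes BCL-w, was at 37.3 ± 2.10 CPM in cKO nuclei and 39.0 ± 5.76 CPM in WT nuclei (-0.07, -0.33 to 0.20).

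Bcl2, the founding gene of the family, was at 20.4, 25.0 and 25.1 CPM in cKO, against 29.0, 16.9 and 18.8 CPM in WT. WT replicate 1 was the highest of all 6 libraries and WT replicate 2 the lowest. The log2 fold change was 0.13 (95% interval -0.23 to 0.49, adjusted p = 0.832), and without replicate 1 of both genotypes it was 0.49 (adjusted p = 0.318). The 4 anti-apoptotic genes summed to 177, 185 and 183 CPM in cKO, against 191, 165 and 187 CPM in WT.

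Downstream of the mitochondria, Apaf1, which forms the apoptosome, was at 8.08 ± 0.86 CPM in cKO nuclei and 8.204 ± 0.93 CPM in WT nuclei (log2 fold change -0.02, 95% interval -0.49 to 0.45). Casp9, the initiator caspase gene, was at 13.5, 7.10 and 10.8 CPM in cKO, against 11.03, 9.34 and 9.10 CPM in WT (0.10, -0.37 to 0.57). The cKO libraries of Casp9 spanned the WT libraries.

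For 21 of the 28 tested genes (75%) the whole 95% interval lay within 2-fold, as it did for 81% of all tested genes. The 7 exceptions were Cdkn2c, Cdkn2d, Cdkn1a, Bbc3, Bad, Bid and Bok. Of these, Cdkn2c, Cdkn2d, Cdkn1a, Bid and Bok had mean levels under 5 CPM in both genotypes, as did Bcl2l11, whose interval lay within 2-fold.

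**Figure D4:**
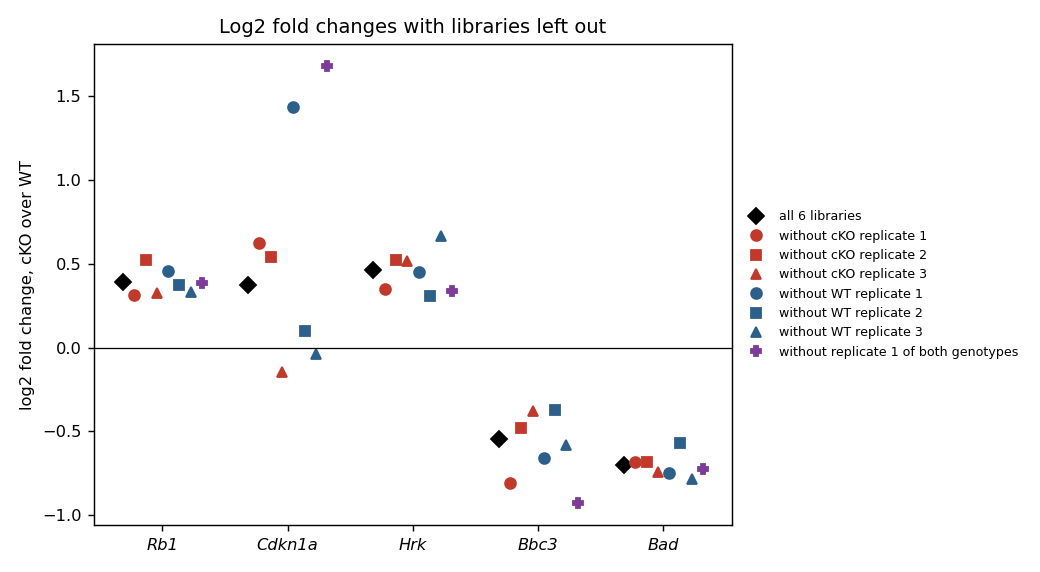
Log2 fold change, cKO over WT, of Rb1, Cdkn1a, Hrk, Bbc3 and Bad with all 6 libraries (black diamond), without each cKO library (red), without each WT library (blue) and without replicate 1 of both genotypes (purple). The values of Rb1, Hrk, Bbc3 and Bad keep their sign throughout, and those of Cdkn1a run from -0.15 to 1.68.

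Levels of different genes were compared per kilobase of exon. Bcl2l1 stood first, at 18.7 CPM per kb in cKO and 19.2 CPM per kb in WT, next to Sesn1 at 18.04 CPM per kb in cKO and 18.5 CPM per kb in WT. Bax followed at 14.6 CPM per kb in cKO and 13.7 CPM per kb in WT. Mcl1 and Mdm4 came next, at 10.2 and 10.1 CPM per kb in cKO and at 9.42 and 9.46 CPM per kb in WT, and they cannot be placed in order within their spread. Bcl2l11, at 0.527 CPM per kb in cKO and 0.543 CPM per kb in WT, was the lowest of the tested genes. Nuclear RNA holds introns, and per kilobase of gene span the order shifted, with Cdkn1b, Mcl1 and Bcl2l2 at the top, Spearman's rho between the 2 orders being 0.856 over the 32 genes.

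**Figure D5:**
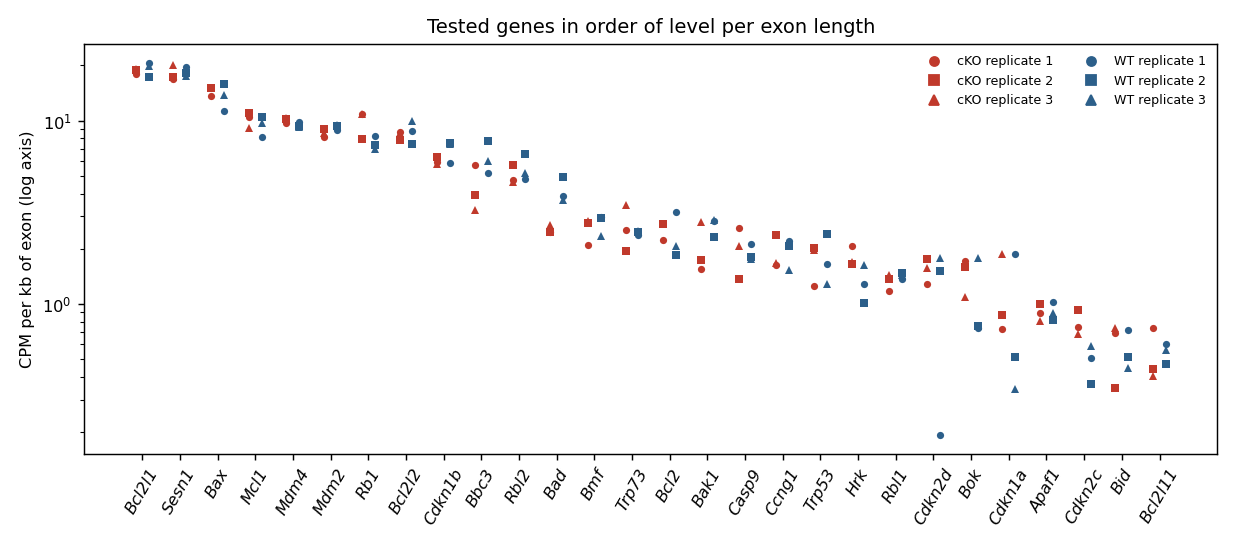
Level per kilobase of merged exon, in CPM per kb on a log axis, of the 28 tested genes from highest to lowest, 1 point per library, with cKO in red on the left and WT in blue on the right. Bcl2l1, Sesn1 and Bax stand at the top and Bcl2l11 at the bottom.

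Other genes of these pathways, in 9 lists drawn up by function with earlier results of these data known, gave no call. Over all tested genes, 6400 log2 fold changes were positive and 6715 negative. Of 35 other p53 targets 24 were tested, 7 positive and 17 negative, with a median log2 fold change of -0.11. Among them the DNA damage gene Gadd45a was at 5.87 ± 0.97 CPM in cKO nuclei and 9.27 ± 1.42 CPM in WT nuclei (-0.65, adjusted p = 0.255), and the antiproliferative gene Btg2 was at -0.34 on the log2 scale (adjusted p = 0.509). Of 18 p53 regulators 16 were tested, 7 positive and 9 negative (median -0.02), among them Ppp1r13b, whose product steers p53 to death genes, at 0.24 (adjusted p = 0.295) and the ubiquitin ligase gene Trim24 at -0.25 (adjusted p = 0.510).

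On the side of the cell cycle, 13 of 16 G1 cyclin and CDK genes were tested, 5 positive and 8 negative, with a median log2 fold change of -0.12. Cdk5, a kinase of neurons that needs no cyclin, had 0.27 (adjusted p = 0.347), and Cdk5r1, which encodes its activator p35, had -0.25 (adjusted p = 0.477). Of 16 genes of E2F factors and the DREAM complex, the repressor complex of resting cells, 13 were tested, again 5 positive and 8 negative (median -0.04). The DREAM subunit gene Lin54 was at 8.76 ± 1.87 CPM in cKO nuclei and 4.80 ± 0.46 CPM in WT nuclei, with every cKO library above every WT library (0.87, unadjusted p = 0.00228, adjusted p = 0.130), and E2f3 had 0.62 (adjusted p = 0.425). Of 22 S and M phase genes 11 passed the filter, which 46.7% of all entries did not pass. These 11 were 6 positive and 5 negative (median 0.09). The helicase subunit gene Mcm4 was at 5.04 ± 1.14 CPM in cKO nuclei and 9.25 ± 1.73 CPM in WT nuclei (-0.88, adjusted p = 0.122), while its partner Mcm5 had -0.29 (adjusted p = 0.720).

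On the side of cell death, 14 of 20 further BCL2 relatives and mitochondrial proteins were tested, 5 positive and 9 negative (median log2 fold change -0.02). Bcl2l15 had -0.21 (adjusted p = 0.359) and the mitophagy gene Bnip3 0.76 (adjusted p = 0.464). Of 19 other caspases, inhibitors of apoptosis and death receptor genes, 9 were tested, 6 positive and 3 negative (median 0.17). Casp2 was at 50.8 ± 3.17 CPM in cKO nuclei and 41.8 ± 3.29 CPM in WT nuclei (0.28, adjusted p = 0.302) and Birc2, an inhibitor of apoptosis, had 0.32 (adjusted p = 0.393). Of 17 genes associated with senescence 4 were tested, 2 positive and 2 negative (median -0.10), among them the nuclear lamina gene Lmnb1, whose loss is a sign of senescence, at -0.28 (adjusted p = 0.491), and Glb1, the gene of the senescence-linked galactosidase, at -0.24 (adjusted p = 0.859). Among 10 tested inducers of BH3-only genes of the FoxO and JUN pathways, 5 positive and 5 negative (median 0.01), Jun was at 17.2 ± 1.71 CPM in cKO nuclei and 23.9 ± 2.25 CPM in WT nuclei (-0.48, adjusted p = 0.158) and Foxo4 had 0.40 (adjusted p = 0.437).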

How the data were processed

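The submitters' processing notes name Subread and mm10. The authors deposited 1 table of raw counts per NCBI gene identifier. For the aligner version, annotation, strand use and multiply mapped reads, nothing is given in the sources used here. Of 24594 entries, 24570 matched a symbol of the RefSeq annotation of GRCm38.p6. Of the 32 genes, 11 share exon bases with another gene annotated by GENCODE, whose reads may not be separated. Exon lengths are merged GENCODE exons.

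The fit was made with edgeR 4.0.16 in R 4.3.3: filterByExpr kept 13115 genes, libraries were TMM-scaled, and genotype was tested over all 6 libraries with robust quasi-likelihood fits and Benjamini-Hochberg adjustment over all tested genes. All p-values are two-sided and from this fit unless another tool is named. Alternatives used limma 3.58.1 (voom) and DESeq2 1.42.0. No library was a copy of another, since counts of each pair within a genotype differed by more than sampling noise (chi-square over degrees of freedom between 4.03 and 5.005). The members and lists were chosen with earlier results of these data known, so no list was tested as a set. All members are named; from each other list the called genes, or with none the 2 of smallest p, are named. Other choices made after values were seen are stated beside them.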

Additional observations from a re-analysis of the deposited data

How the results depend on the processing

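The count of the 32 genes called was 0 with all libraries and under size factors of the DESeq2 type, library size alone, the 4 largest entries left out, DESeq2 and limma-voom. It was 1, Rb1, with no filter on low counts, and it ranged from 0 to 1 when libraries were left out, the 1 being Rb1 without cKO replicate 2. Over all tested genes 76 were called, 277 with no filter, 42 with limma-voom, 43 without replicate 1 of both genotypes, and between 13 (without WT replicate 3) and 249 (without WT replicate 1) when 1 library was left out; the cause was not tested. The counts without cKO replicate 1, cKO replicate 2 and WT replicate 2 were 14, 150 and 18. With library size alone, 69 were higher in cKO and 32 lower, beside 42 and 34 in the fit reported. Library size alone gave log2 fold changes of 0.0082 for Trp53, 0.0144 for Ccng1 and 0.0139 for Apaf1, which were below 0 in the fit reported. Without replicate 1 of both genotypes the sign also changed for Trp53 (0.12), Ccng1 (0.18), Sesn1 (0.0651), Bmf (0.0848), Bcl2l1 (0.0475), Apaf1 (0.0714) and Casp9 (-0.0432). The limit for silence gave 3 silent genes at 0.3 CPM and 1 at 0 to 2 counts per library, and Spearman's rho was 0.856 between orders by exon length and by gene span.

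Leaving out 1 library at a time, log2 fold changes that changed sign ran from -0.0981 to 0.82 for Cdkn2d, -0.15 to 1.43 for Cdkn1a, -0.24 to 0.0109 for Rbl2, -0.22 to 0.26 for Trp53, -0.13 to 0.29 for Trp73, -0.21 to 0.083 for Ccng1, -0.11 to 0.0185 for Sesn1, -0.36 to 0.12 for Bcl2l11. They ran from -0.0869 to 0.36 for Bid, -0.21 to 0.0253 for Bmf, -0.0181 to 0.22 for Bax, -0.016 to 0.40 for Bcl2, -0.11 to 0.0174 for Bcl2l1, -0.17 to 0.0475 for Bcl2l2, -0.0978 to 0.069 for Apaf1, -0.13 to 0.31 for Casp9.

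Of the recomputed log2 fold changes, 352 kept their sign and did not cross the threshold, 38 changed sign, and 12 of the 28 genes kept their sign throughout. The 352 include DESeq2 values without an adjusted p, for which only the sign was compared. Libraries of the same replicate number did not all correlate best with each other. Deviations from the genotype mean correlated at 0.152, 0.005 and -0.038 between libraries numbered 1, 2 and 3, over 13115 genes. The replicate 1 libraries correlated best with each other, and they were the libraries with high Xist (831 CPM in cKO and 811 CPM in WT). By contrast, cKO replicate 2 correlated best with WT replicate 3 (0.108) and cKO replicate 3 with WT replicate 2 (0.086). The deviations of a gene within a genotype sum to 0, so these correlations are not independent and cannot decide how libraries pair. With the replicate number as a block, 90 genes were called, 0 of the 32 among them. At 6340236 to 8284768 counts per library, precision is limited for genes of a few CPM. Cdkn2a, Cdkn2b, Fas and Pmaip1 were not tested in the fit reported. Fitted without the filter on low counts, Cdkn2b had an unadjusted p below 0.05 by edgeR, on 0 to 3 counts per library, and was not called. The count of 0 called genes does not show that the 32 genes were equal between the genotypes.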

Other observations

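Among the WT libraries, 2 of the inhibitors varied more than most genes of like level. For Cdkn1a the highest library was 2.56 times the lowest in cKO and 5.48 times in WT, spreads that 13.1% and 0.443% of the 2032 tested genes within 1.5-fold of its mean level reached in cKO and in WT. For Cdkn2d the highest library was 1.38 times the lowest in cKO and 9.24 times in WT, spreads that 83.3% and 0.620% of 1613 such genes reached in cKO and in WT. These genes were singled out after their values were seen.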
